A study of Mus musculus with 6 samples.

Results

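Platelet-derived growth factors (PDGFs) are secreted dimers that signal through a pair of related receptor tyrosine kinases, and KIT ligand (stem cell factor) signals through KIT, a receptor of the same structural class. The genes described here are the 8 that encode these ligands and receptors: Pdgfa, Pdgfb, Pdgfc and Pdgfd for the PDGF ligands, Pdgfra and Pdgfrb for the PDGF receptors, Kitl for KIT ligand and Kit for its receptor. They were chosen by symbol in the deposited annotation of the array, where each has 1 probe set that carries that symbol alone, so that the members are 8 of 26836 probe sets with a gene symbol and 8 of 35556 probe sets in all.

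They were measured in MA-10 cells, a line derived from a mouse Leydig cell tumour that makes steroids. The series held 2 groups of 3 biological replicates, MA-10 cells transfected for 48 h with an siRNA against COUP-TFII, the orphan nuclear receptor encoded by Nr2f2, and MA-10 cells transfected for 48 h with a control siRNA. All cells were one line grown in medium with horse serum, and the labels name neither the siRNA sequences nor a rescue or untreated culture. Total RNA was hybridised to 6 Affymetrix arrays, and values are the deposited normalized log2 expression, where a difference of 1 is a 2-fold change.

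In the testis, PDGF-A from the seminiferous tubules acts on PDGFRA-bearing interstitial precursors, and mice without PDGF-A lack most adult Leydig cells. PDGF-A, PDGF-B and PDGF-C can activate PDGFRA, whereas PDGF-B and PDGF-D are the main activators of PDGFRB. PDGF-C and PDGF-D are secreted in a latent form, from which proteases such as tissue plasminogen activator and urokinase remove the CUB domain. KIT is carried by germ cells, mast cells, melanocytes and Leydig cells, and Sertoli cells are the well known testicular source of KIT ligand.

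Of the 8 genes, Pdgfd was the 1 called as changed after the siRNA against COUP-TFII, falling to 76.7% of its level in control siRNA cells. Kit and Pdgfra read higher, and Pdgfb lower, on all 3 COUP-TFII siRNA arrays than on any control siRNA array. None of these 3 passed the test, which does not show that they were unchanged. Pdgfa, Pdgfc, Pdgfrb and Kitl had overlapping groups. A call required a limma p below 0.05 after Benjamini-Hochberg adjustment over all 26836 probe sets with a symbol. Of these 4.51% were called, 2.92% as lower and 1.59% as higher in COUP-TFII siRNA cells. In the deposited values the groups did not overlap for 4 of the 8 members, 2 higher and 2 lower, against 25.2% of all probe sets. Of all probe sets, 13.0% were higher without overlap and 12.2% lower. The median difference was -0.01 over the 8 members and 0.01 over all probe sets.

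The stretches just upstream of Pdgfd and Kit are shown because Pdgfd was the member called and Kit, among those not called, the one with the smallest unadjusted p. COUP-TFII is known to bind repeats of the half-site AGGTCA, so the shorter core GGTCA was searched on both strands and is in capitals, also where its complement TGACC is what the printed strand holds. Each stretch ends at the base before the start of the gene in RefSeq's annotation, runs 5′ to 3′ on the plus strand of GRCm38.p6, and covers chr9:6168236-6168362 for Pdgfd and chr5:75574737-75574986 for Kit.
Pdgfd: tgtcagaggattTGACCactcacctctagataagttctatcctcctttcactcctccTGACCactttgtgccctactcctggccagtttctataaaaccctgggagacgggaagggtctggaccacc
Kit: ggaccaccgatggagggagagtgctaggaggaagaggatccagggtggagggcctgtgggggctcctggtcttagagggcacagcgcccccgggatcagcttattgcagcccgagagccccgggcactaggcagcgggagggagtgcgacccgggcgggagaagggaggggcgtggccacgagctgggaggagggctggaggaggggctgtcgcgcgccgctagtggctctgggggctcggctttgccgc

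The 127 bases before Pdgfd held the core 2 times, both as TGACC. In the first 127 bases of the 32851 promoter windows in the reference table, at least 1 match stood in 19.7% and at least 2 in 2.40%. That length and that count were taken from Pdgfd itself, so the share does not measure how unusual Pdgfd is. The first 127 bases of a window also need not end at the gene start, and for Kit they do not. The 250 bases before Kit held 0 matches, while 35.2% of the first 250 bases of all windows held at least 1. Windows of 300 bases, 8 in all, cover 6 of the members, without Pdgfb, which had no window, and Pdgfrb, which was not searched. Among these the core stood in the window of Pdgfd and in 1 window of Pdgfa, and in 40.5% of all such windows. Pdgfa differed by -0.02 between the groups and was not called. The full half-site AGGTCA stood in 0 of the 8 windows and in 16.3% of all such windows. These matches describe letters, not binding, which was not measured here.

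The targeted gene was read first as a check of the labels. Nr2f2 read 8.25, 8.42 and 8.56 in COUP-TFII siRNA cells, against 8.98, 8.97 and 9.19 in control siRNA cells, a fall by 0.63 (standard error, SE, 0.09) with a limma adjusted p of 0.00802. About 64.4% of the control level of this transcript thus remained. Arrays correlated with each other at 0.997 to 0.999 across probe sets. Their medians differed by group, at 7.595 to 7.596 in COUP-TFII siRNA cells and 7.56 to 7.571 in control siRNA cells.

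**Figure D1:**
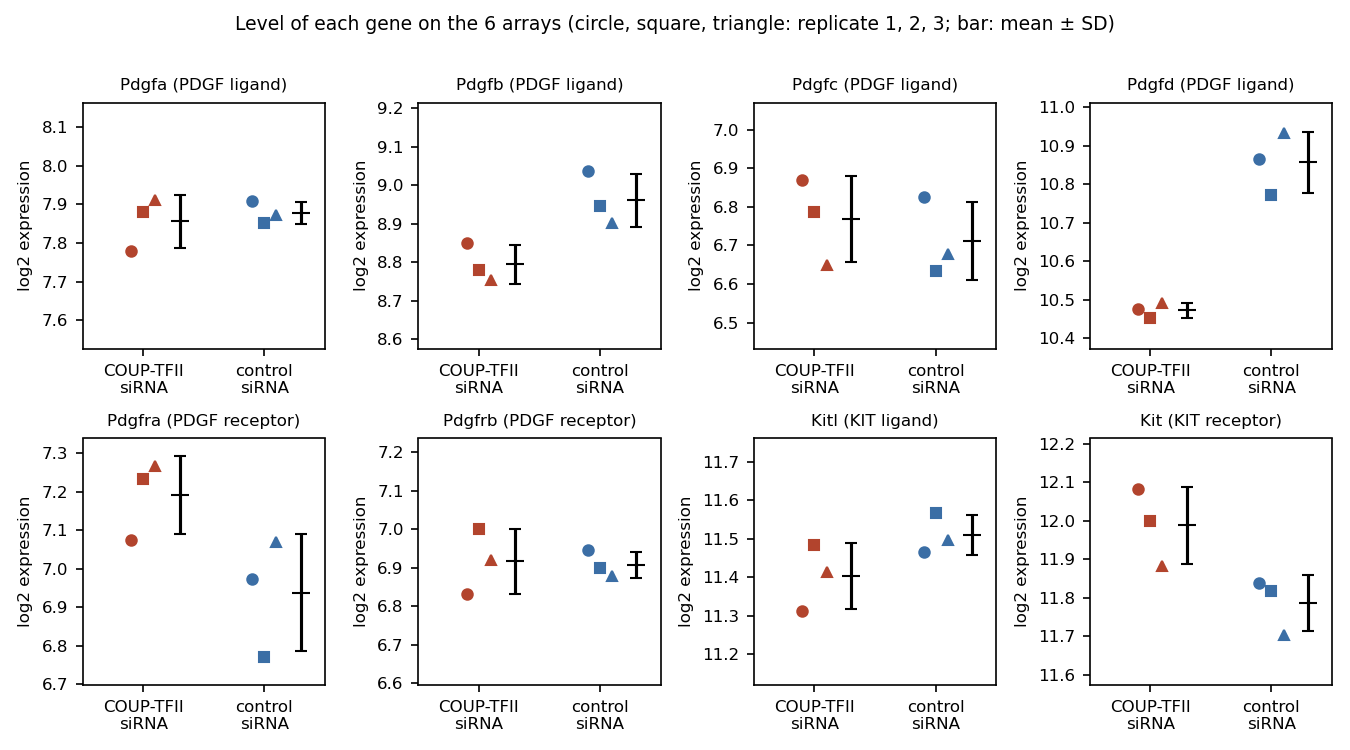
Normalized log2 expression of the 8 genes on the 6 arrays, with COUP-TFII siRNA on the left and control siRNA on the right of each panel. Symbols are single arrays and bars the mean and SD of 3 arrays. All vertical axes span the same number of log2 units, and the gap between groups is widest for Pdgfd, at 0.28.

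Among the ligands, Pdgfd (probe set 10583021, chromosome 9 band A1 in the deposited annotation) encodes PDGF-D, a latent factor that acts mainly on PDGFRB once cleaved. It read 10.48, 10.45 and 10.49 in COUP-TFII siRNA cells, against 10.87, 10.77 and 10.93 in control siRNA cells. All COUP-TFII siRNA arrays lay below all control arrays, with a gap of 0.28 between the groups. The fall was 0.38 (SE 0.05, n = 3 per group) with a limma adjusted p of 0.00798, and its 95% confidence interval of -0.51 to -0.26 corresponds to 70.5% to 83.4% of the control level. In RNA of whole cultures, fewer cells with the transcript and less of it per cell cannot be told apart. The exact permutation test over the 6 arrays gave a 2-sided p of 0.1, the smallest that 3 against 3 arrays allow. The COUP-TFII siRNA arrays were closer together (SD 0.02) than the control arrays (SD 0.08). By unadjusted p Pdgfd ranked at 215 of 26836 probe sets, and by size at 237 among the 783 probe sets called lower, so that many called falls were larger. It was called under each of the 15 alternative settings tried, with adjusted p from 0.000610 to 0.0471 and the last of these without COUP-TFII siRNA replicate 2.

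Pdgfb encodes PDGF-B, the ligand that binds both PDGF receptors (probe set 10430660, chromosome 15 band E). It read 8.85, 8.78 and 8.75 in COUP-TFII siRNA cells, against 9.04, 8.94 and 8.90 in control siRNA cells. The groups did not overlap, with a gap of 0.05 between them, beside an SD of 0.05 within COUP-TFII siRNA cells and of 0.07 within control cells. The difference was -0.17 (SE 0.05, 95% interval -0.29 to -0.04, limma adjusted p = 0.133). Among brighter probe sets alone, those above the median of all, it passed as a fall (limma adjusted p = 0.04996).

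Pdgfa encodes PDGF-A, the ligand needed for adult Leydig cells in mice (probe set 10535043, chromosome 5 band G2). It read 7.78, 7.88 and 7.91 in COUP-TFII siRNA cells, against 7.91, 7.85 and 7.87 in control siRNA cells. The control arrays lay within the range of the COUP-TFII siRNA arrays, and the difference was -0.02 (SE 0.05, limma adjusted p = 0.880). The 95% interval ran from 90.8% to 107% of the control level, so a change of Pdgfd's size lay outside it.

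Pdgfc encodes PDGF-C, the second latent ligand, which acts mainly on PDGFRA (probe set 10492689, chromosome 3 band E3). It read 6.87, 6.79 and 6.65 in COUP-TFII siRNA cells, against 6.83, 6.63 and 6.68 in control siRNA cells. In each group 1 array stood above 6.8, namely replicate 1, and the difference was 0.06 (SE 0.07, limma adjusted p = 0.738). With 92.7% to 117% of the control level inside the 95% interval, a change of Pdgfd's size again lay outside the interval. Its probe set was dim, with a mean level above 92.5% of 1444 probe sets for olfactory and vomeronasal receptors, which served as a range for genes that Leydig cells are not known to use.

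Kitl encodes KIT ligand (probe set 10366052, chromosome 10 band D1). It read 11.31, 11.48 and 11.42 in COUP-TFII siRNA cells, against 11.47, 11.57 and 11.50 in control siRNA cells. Only COUP-TFII siRNA replicate 2 reached into the control range, and the difference of -0.11 (SE 0.06) was not called (limma adjusted p = 0.369). The 95% interval covered 84.8% to 102% of the control level.

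Among the receptors, Kit (probe set 10522530, chromosome 5 band C3.3) read 12.08, 12.00 and 11.88 in COUP-TFII siRNA cells, against 11.84, 11.82 and 11.70 in control siRNA cells. The COUP-TFII siRNA arrays were all higher, with a gap of 0.04 between the groups that was narrower than the SD within either of them (0.10 in COUP-TFII siRNA cells and 0.07 in control cells). The difference was 0.20 (SE 0.06) with a 95% interval of 104% to 127% of the control level, and it was not called (limma adjusted p = 0.126). With an intensity trend in limma's prior, which estimates the spread for each brightness, Kit passed as a rise (adjusted p = 0.0388), and under the 14 other alternatives it did not. Kit ranked at 2756 by unadjusted p, and 5172 probe sets, or 19.3%, had an unadjusted p under 0.05, so such a p was common on these arrays.

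Pdgfra encodes the receptor for PDGF-A and PDGF-C and marks interstitial precursors of Leydig cells (probe set 10522503, chromosome 5 band C3.3). It read 7.08, 7.23 and 7.27 in COUP-TFII siRNA cells, against 6.97, 6.77 and 7.07 in control siRNA cells. The groups were separated by a gap of 0.007 between COUP-TFII siRNA replicate 1 and control replicate 3, so that the separation rests on these 2 arrays. That separation is lost once the array medians are made equal. The difference of 0.25 (SE 0.08, 95% interval 104% to 136% of the control level) was not called (limma adjusted p = 0.137), nor was it under any of its 14 alternatives (adjusted p from 0.111 to 0.335). Its mean level stood above 96.4% of the olfactory and vomeronasal receptor probe sets, and the control SD of 0.15 was the largest among the members.

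Pdgfrb encodes the receptor on which PDGF-B and PDGF-D act, and is known from pericytes and peritubular cells (probe set 10456046, chromosome 18 band E1). It read 6.83, 7.00 and 6.92 in COUP-TFII siRNA cells, against 6.94, 6.90 and 6.88 in control siRNA cells. All control arrays fell inside the range of the COUP-TFII siRNA arrays. The difference was 0.01 (SE 0.06, 95% interval 92.2% to 110% of the control level, limma adjusted p = 0.955), and its sign was negative under each of the 3 other normalizations. Its mean level stood above 95.2% of the olfactory and vomeronasal receptor probe sets and above 39.6% of all probe sets.

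**Figure D2:**
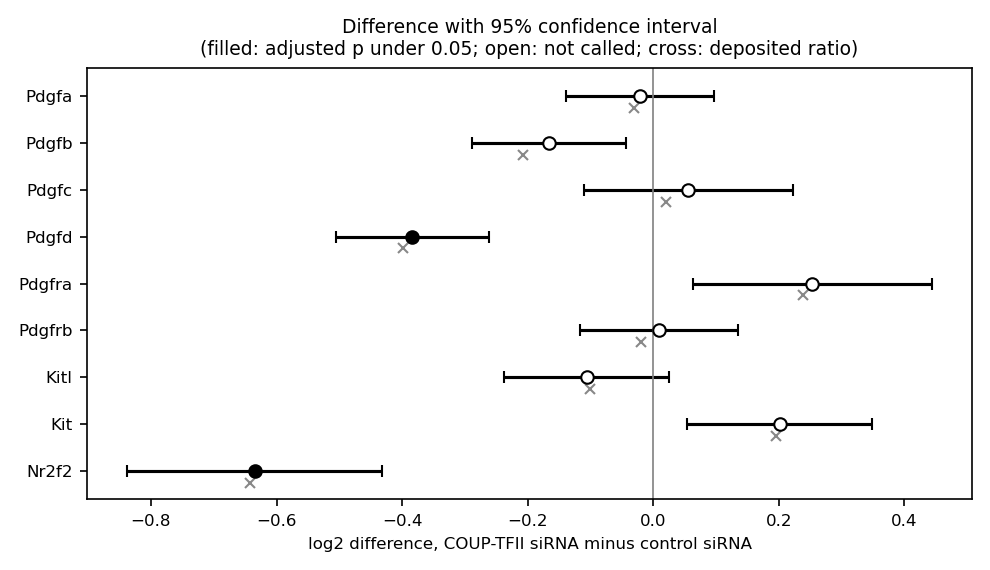
Difference between COUP-TFII siRNA and control siRNA for the 8 genes and Nr2f2, on the log2 scale. Points and bars are limma estimates with 95% confidence intervals from 3 arrays per group, filled where adjusted p was under 0.05, and crosses are the log2 of the ratio in the authors' deposited table. The unadjusted intervals of Pdgfd, Pdgfb, Kit and Pdgfra lie on one side of 0, that of Pdgfd from -0.51 to -0.26.

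The authors' deposited table of all probe sets gives the same comparison as a ratio. The smallest design that gives its F values has 4 groups and 12 arrays, so its p-values draw on more than these 6 arrays. Its ratios also differ somewhat from the differences on these 6 arrays, for Pdgfrb in direction (0.987, against a log2 difference of 0.01). In the authors' deposited table Pdgfd had a ratio (COUP-TFII siRNA divided by control siRNA) of 0.759, with an unadjusted p of 6.56e-05. The same deposited table of the authors gives 0.866 for Pdgfb, with an unadjusted p of 0.00510. For the receptors, the authors' deposited table has ratios of 1.15 for Kit (unadjusted p = 0.0310), 1.18 for Pdgfra (unadjusted p = 0.0332) and 0.987 for Pdgfrb (unadjusted p = 0.775). In the authors' deposited table Kitl had 0.933 (unadjusted p = 0.0384), Pdgfa 0.979 and Pdgfc 1.01. The authors' deposited list of 334 changed probe sets, each with a fold of at least 1.30 and an unadjusted p of at most 0.00995, holds Pdgfd as the 1 member. Its unadjusted p there is 0.00390, and the smallest design that gives the F values of that list has 2 groups and 6 arrays. The 2 p-values of the authors for Pdgfd thus come from different designs.

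Pdgfra and Kit are neighbours on chromosome 5, with no other protein-coding gene between them in RefSeq's annotation, and the next 2 protein-coding genes beyond Kit are Kdr, a receptor of vascular endothelial growth factor, and Srd5a3, a polyprenol reductase. Kdr read 5.98, 6.09 and 6.15 in COUP-TFII siRNA cells, against 5.97, 5.97 and 5.95 in control siRNA cells. Srd5a3 read 11.14, 11.12 and 11.12 in COUP-TFII siRNA cells, against 11.01, 11.06 and 11.04 in control siRNA cells. These 4 consecutive genes were thus all higher without overlap, as were 13.0% of all probe sets, and none was called. Differences were 0.11 (SE 0.05) for Kdr and 0.09 (SE 0.04) for Srd5a3, with limma adjusted p of 0.323 and 0.310. Kdr was dim, below the level of 6.89 under which 95% of the olfactory and vomeronasal receptor probe sets lie. Its lowest COUP-TFII siRNA array, at 5.983, barely exceeded its highest control array, at 5.971. The gap between groups was likewise only 0.007 for Pdgfra. Both gaps were narrower than the step between the array medians of the groups. Both separations are lost once those medians are made equal. On the other side of Pdgfra, the groups overlapped for Gsx2 (difference 0.02, SE 0.09) and Chic2 (difference 0.10, SE 0.06).

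Other cell types were looked for by their markers. All 5 mast cell markers (Cpa3, Mcpt4, Tpsb2, Ms4a2 and Fcer1a) were dim, below the level under which 95% of the olfactory and vomeronasal receptor probe sets lie (6.89), and their mean level per array spanned 5.20 to 5.24 in COUP-TFII siRNA cells and 5.16 to 5.25 in control cells. Of 6 markers of peritubular myoid cells and fibroblasts, Dcn and Lum were dim and none was called. Mean levels per array were 6.79 to 6.85 in COUP-TFII siRNA cells and 6.77 to 6.86 in control cells. Acta2, Myh11, Des and Col1a1 were above 6.89, with Col1a1 highest, at 8.08 in each group. Among 5 macrophage markers, Ptprc, Adgre1 and Csf1r were dim and 0 were called. Cd14 and Cd68 were above 6.89, Cd68 at 8.46 in COUP-TFII siRNA cells and 8.72 in control cells. Of 5 endothelial markers, Pecam1, Kdr and Tek were dim and 0 were called. Vwf and Cdh5 were above 6.89, and Cdh5 was bright, at 11.5 in COUP-TFII siRNA cells and 11.6 in control cells. Of 6 Sertoli cell markers, Amh, Fshr and Rhox8 were dim and 0 were called. Sox9, Dhh and Wt1 were above 6.89, with Sox9 at 9.55 in COUP-TFII siRNA cells and 9.33 in control cells. In the germ cell list, Dazl, Sycp3 and Zbtb16 were dim, and the RNA helicase gene Ddx4 fell by 0.32 (SE 0.06, limma adjusted p = 0.0217). All 7 measured Leydig markers were above 6.89, and 4 of them fell, Star, Cyp11a1, Hsd3b1 and Lhcgr. Mean levels of the 7 per array were 10.7 to 10.8 in COUP-TFII siRNA cells and 11.0 to 11.1 in control cells. Cyp17a1 went the other way, by 0.34 (SE 0.13), and was not called (limma adjusted p = 0.201). Nr5a1 (difference -0.02) and Gata4 (difference -0.09) were not called either. The part of the 4 Leydig marker falls in the fall of Pdgfd was not tested.

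The patterns most like that of Pdgfd over the 6 arrays, among 19578 named genes and after centring each gene on its own mean, were those of H2afv, Plcb4 and Per3. Their root mean squared differences from Pdgfd were 0.020, 0.022 and 0.025 on the log2 scale. H2afv, a histone H2A variant gene, differed by -0.37 (SE 0.06), Plcb4, a phospholipase C beta, by -0.38 (SE 0.05) and Per3, a period gene of the circadian clock, by -0.38 (SE 0.05). Each of the 3 was called lower, which follows from their choice.

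The wider PDGF and KIT pathways were read through 6 lists with 102 measured genes, each represented by its brightest probe set. Of these, 12 changed, 8 lower and 4 higher, or 11.8%. Among all 24008 genes 4.63% were called, 3.03% lower and 1.60% higher, but 81 of the 102 were brighter than the median probe set, and among genes that bright 8.35% were called. The median difference over the 102 genes was -0.01, against 0.01 over all genes. Of the 12 calls, 4 were kept under all 15 alternatives, and 8 were lost without COUP-TFII siRNA replicate 2. Without that replicate 306 of all probe sets were called, against 1209 as fitted, so such losses were common.

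**Figure D3:**
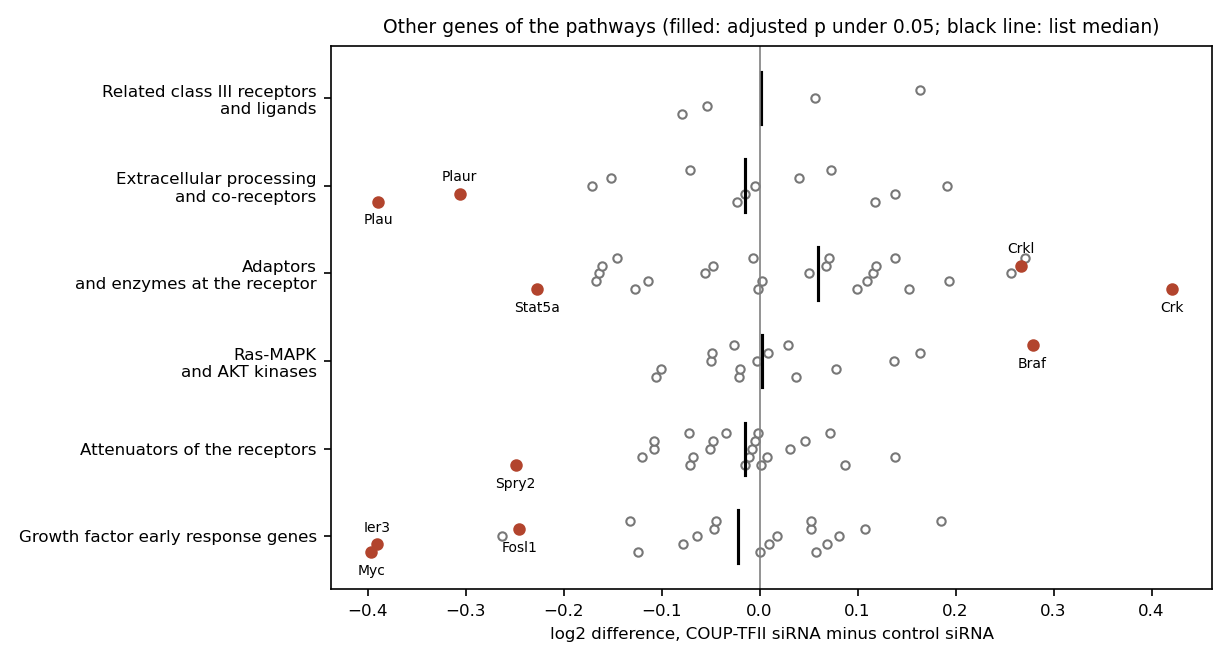
Differences between COUP-TFII siRNA and control siRNA for the genes of the 6 pathway lists, on the log2 scale, with each point 1 gene. Filled points had a limma adjusted p under 0.05 and are labelled, 2 called genes are not shown, and black lines are medians over all genes of a list, which lie between -0.02 and 0.06.

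Outside the cell, the urokinase gene Plau fell, and urokinase is known to release the active domain of PDGF-D. Plau was at 76.4% of its control level, a fall by 0.39 (SE 0.08, limma adjusted p = 0.0291). Plaur, the gene of the urokinase receptor, fell by 0.31 (SE 0.05), to 80.9% of the control level (limma adjusted p = 0.0162). These were the 2 falls, with 0 rises, among 13 genes of extracellular processing and co-receptors, whose median difference was -0.01. Plat, the tissue plasminogen activator that cleaves PDGF-C, differed by 0.19 (SE 0.08, limma adjusted p = 0.211) and was dim. Both calls were lost when COUP-TFII siRNA replicate 2 (adjusted p = 0.0920 for Plau and 0.0776 for Plaur), COUP-TFII siRNA replicate 3 (0.0993 and 0.0594) or control replicate 3 (0.0749 and 0.0618) was left out, and that of Plau also when COUP-TFII siRNA replicate 1 was (0.0895). With the replicate number as a block, Plaur was at an adjusted p of 0.0510.

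The other receptors and ligands of the same structural class gave 0 calls among 4. Il34, a ligand of the CSF1 receptor, had the smallest p, with a difference of 0.16 (SE 0.05, limma adjusted p = 0.126).

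Of 26 adaptors and enzymes that act at the receptors, 2 rose and 1 fell, and the median difference was 0.06. Crk, an SH2 and SH3 adaptor, read 10.97, 10.95 and 11.01 in COUP-TFII siRNA cells and averaged 10.56 in control siRNA cells. It rose by 0.42 (SE 0.05, limma adjusted p = 0.00320), to 134% of the control level. Its close relative Crkl rose by 0.27 (SE 0.05, limma adjusted p = 0.0271). Stat5a, a transcription factor activated downstream of KIT, fell by 0.23 (SE 0.05, limma adjusted p = 0.0369). Leaving out COUP-TFII siRNA replicate 2 put adjusted p at 0.109 for Crkl and 0.129 for Stat5a. The call of Stat5a was lost without each of the 6 arrays in turn, and that of Crkl without each except control replicate 1, where adjusted p was 0.0443.

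Of 16 kinases and GTPases of the Ras-MAPK and AKT routes, 2 rose and 0 fell. Braf, a kinase that RAS proteins activate, rose by 0.28 (SE 0.05, limma adjusted p = 0.0172). The median of the list was 0.00. Braf was lost without COUP-TFII siRNA replicate 1, 2 or 3 (adjusted p = 0.0660, 0.0675 and 0.0656) and without control replicate 1 (0.0509).

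Among 23 attenuators of receptor signalling there were 2 falls and 0 rises, with a median of -0.02. Spry2, a feedback inhibitor of receptor tyrosine kinases, fell by 0.25 (SE 0.06), at an adjusted p of 0.0494 in limma that was lost without each of the 6 arrays in turn (0.0711 to 0.161). Early response genes of growth factor signalling had 3 falls and 0 rises among 20, with a median of -0.02. Myc, a transcription factor gene induced by PDGF, fell by 0.40 (SE 0.05, limma adjusted p = 0.00580), to 76.0% of the control level, and the stress response gene Ier3 fell by 0.39 (SE 0.09, limma adjusted p = 0.0396). Fosl1, which encodes the AP-1 subunit FRA-1, fell by 0.25 (SE 0.06, limma adjusted p = 0.0451). Leaving out COUP-TFII siRNA replicate 2 put adjusted p at 0.147 for Ier3 and 0.158 for Fosl1. Both were also lost without COUP-TFII siRNA replicate 1 (0.131 for Ier3 and 0.152 for Fosl1) and without control replicate 1 (0.0505 and 0.103), control replicate 2 (0.0751 and 0.0708) and control replicate 3 (0.109 and 0.134).

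**Figure D4:**
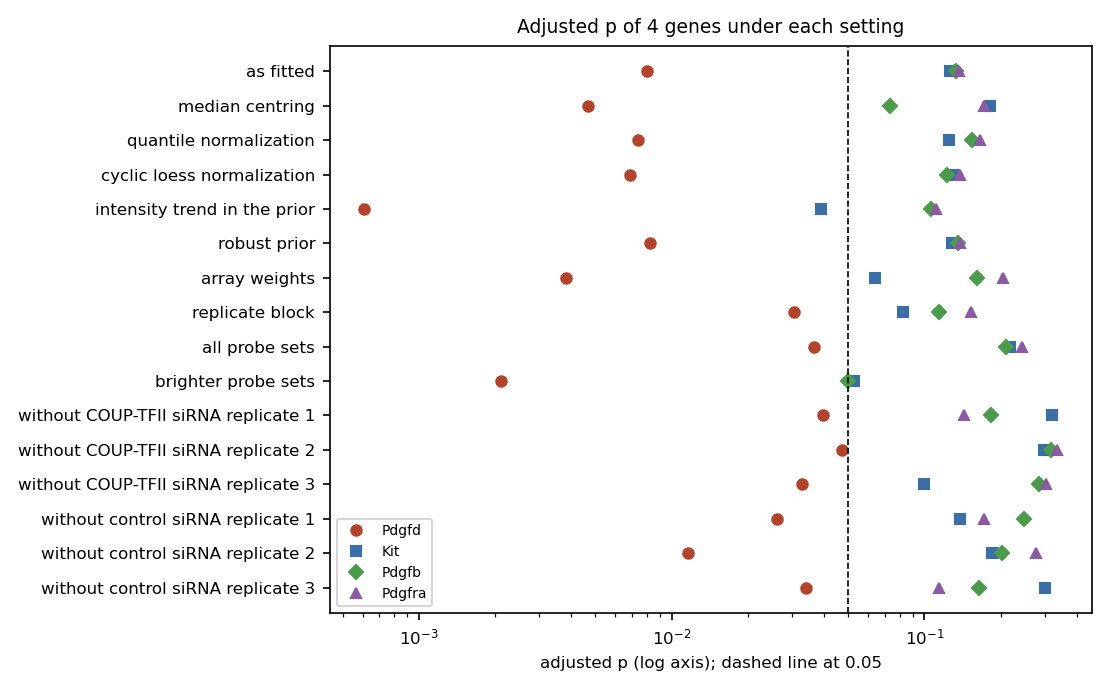
Adjusted p of Pdgfd, Kit, Pdgfb and Pdgfra, the 4 members whose groups did not overlap, as fitted and under each alternative setting, on a log axis with a dashed line at 0.05. Pdgfd lies below the line throughout, from 0.000610 to 0.0471, Kit crosses it when the prior follows intensity and Pdgfb among brighter probe sets, and Pdgfra stays above it. Pdgfra has no point among brighter probe sets, where it was filtered out.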

How the data were processed

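RNA of 6 cultures was measured on Affymetrix arrays and grouped by the labels' titles. Partek 7.0 is named in the submitters' processing notes, and how signals were background-corrected, summarised and normalized is not given in the sources used here. The deposited value table holds normalized log2 expression of the authors, with values from 3.15 to 14.3. The deposited tables of the authors add a linear ratio, a signed fold (a score, minus 1 over the ratio where that is below 1) and an unadjusted p-value per probe set.

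Probe sets with a symbol were fitted with limma 3.58.1 in R 4.3.3 (lmFit and eBayes, group as the only term, 6 arrays), and p-values were adjusted over all 26836. Differences are COUP-TFII siRNA minus control siRNA, SEs are limma's, and intervals are 95%. The procedure was tested on simulated data. The number of arrays limits the precision. Exact permutation tests were run over the arrays with scipy 1.17.1.

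Members and lists were chosen with earlier results of these data known. A gene on a list was read from its brightest probe set with that single symbol, which gave 24008 genes, and 3 listed names had no such probe set. The text names every member, Nr2f2, up to 6 called genes per list (otherwise the one with the smallest p) and the 3 genes most like the called member, while chromosomal neighbours, Plat and the genes under other observations were named after their values were seen. The values of 2 called list genes are not reported here. Symbols, gene order and promoter sequences came from RefSeq (GRCm38.p6), whose table matched all 8 members by Entrez ID. The deposited annotation names no build. Same-numbered replicates correlated at 0.11, -0.05 and 0.17 in their deviations from the group means, and differently numbered ones at -0.22 to 0.13. They were not treated as pairs in the main fit, and the replicate number was tried as a block. The 15 alternatives changed normalization, prior, array weights, block, probe sets or replicates.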

Additional observations from a re-analysis of the deposited data

How the results depend on the processing

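Pdgfd was called under all 15 alternatives, with differences from -0.43 to -0.35 without single arrays. The number of members called was 2 with an intensity trend in the prior, which added Kit, and 2 among brighter probe sets, which added Pdgfb, and 1 under each of the others. Pdgfrb turned negative after median centring (-0.0210), quantile normalization (-0.0262) and cyclic loess normalization (-0.0244), and without COUP-TFII siRNA replicate 2 or control siRNA replicate 3 (range without single arrays -0.0325 to 0.0523). Pdgfa turned positive without COUP-TFII siRNA replicate 1 (range -0.0483 to 0.0179). None of these was a call. Of all probe sets, 1209 were called (426 higher, 783 lower). This became 2132 (815 and 1317) with an intensity trend, 2375 (920 and 1455) among the 13418 brighter ones, 436 (145 and 291) when all 35556 were fitted, and 306 to 737 (96 to 240 and 210 to 518) without single arrays. Median centring gave 308 higher and 1184 lower. With the replicate number as a block, 711 were called (227 higher and 484 lower), and 7 of the pathway genes in place of 12. Pathway genes called numbered 4 with all probe sets, 20 among brighter ones and 4 to 8 without single arrays. Fewer or more probe sets enter some of these fits by construction, and the cause of the other shifts was not tested. Pdgfc, Pdgfra and Pdgfrb lay below the median of all probe sets and drop out of the brighter setting, so no value was had there.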

Other observations

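Several early response genes of growth factor signalling differed far more between arrays of 1 group than between the groups. Egr1, a zinc finger transcription factor gene induced within minutes by PDGF and serum, read 7.86, 9.74 and 10.40 in COUP-TFII siRNA cells, against 8.09, 9.50 and 10.24 in control siRNA cells, in the order of the replicate numbers. Arrays of the same number thus lay within 0.24 of each other, while each group spanned more than 2. Fos, an AP-1 subunit gene, read 7.50, 8.40 and 9.13 in COUP-TFII siRNA cells, against 7.81, 8.47 and 9.15 in control siRNA cells. Ier2, another immediate early gene, read 8.35, 8.99 and 9.31 in COUP-TFII siRNA cells, against 8.36, 8.86 and 9.19 in control siRNA cells. Jun, Junb and Fosb had the same order of arrays in both groups over narrower ranges. Egr1 and Fos are 2 of only 3 fitted probe sets whose range exceeded 1 in both groups, where the median SD over all probe sets was 0.06 in COUP-TFII siRNA cells and 0.07 in control cells.

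The difference between the groups was 0.06 for Egr1, with an SE of 0.67 that became 0.10 with the replicate number as a block (limma adjusted p = 0.977 and 0.790). For Fos it was -0.13, with an SE of 0.42 that became 0.07 (limma adjusted p = 0.910 and 0.361). These genes were picked after their values were seen. Across all probe sets, deviations of same-numbered arrays from their group means correlated only weakly. Myc, which fell, spanned 0.13 in COUP-TFII siRNA cells and 0.05 in control cells and did not show that order in both groups. Kit and Pdgfb had the opposite order of arrays in both groups, over narrower ranges, with replicate 1 at the top and replicate 3 at the bottom. Pdgfd also had the same order in both groups, with replicate 3 at the top and replicate 2 at the bottom.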
